A study of Mus musculus with 4 samples.

Results

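Malat1, Neat1, Pvt1, Gas5, Snhg1, Snhg3 and Mir17hg are 7 mouse noncoding RNA genes, taken here by their symbols from the 33565 genes of a single-cell RNA sequencing experiment on 3 cell lines. They were chosen as abundant or growth-related noncoding RNAs, and their level in each line was compared with the sequencing depth and the mitochondrial share of the cells. The experiment used CapSeq, in which cells held in microcapsules are barcoded by rounds of splitting and pooling, and each molecule carries a unique molecular identifier (UMI). Every line occupied its own columns of the BC1 plate, the plate of the first barcode, and all lines ended in 1 library. N2a (Neuro-2a) is a mouse neuroblastoma line and NIH/3T3 a mouse fibroblast line, both grown in DMEM with fetal bovine serum and penicillin-streptomycin. The mESCs were mouse embryonic stem cells of the E14TG2a line, kept on gelatin in serum medium with leukemia inhibitory factor, CHIR99021 and PD0325901, which block the kinases GSK3 and MEK. Columns 1 to 4 of the plate were given to N2a, the columns from 5 up to 8 to NIH/3T3, and the remaining ones, 9 to 12, to the mESCs. Each line was 1 culture in 1 library, which leaves no replicates to test lines with, and the 95% intervals given are exact intervals that cover counting error only.

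Long noncoding RNAs act without being translated, and the 7 genes represent several ways of doing so. Malat1 RNA is retained in nuclear speckles, where splicing factors collect, and Neat1 RNA is the scaffold of paraspeckles, another nuclear body. Both are transcribed from neighbouring genes and can end without an ordinary poly(A) tail. Pvt1 lies downstream of the growth regulator gene Myc and is a frequent partner of Myc in gene amplifications. Gas5, Snhg1 and Snhg3 are hosts of small nucleolar RNAs (snoRNAs), which guide the chemical modification or cleavage of ribosomal RNA and are cut out of the introns. Gas5 and Snhg1 belong to the 5′ terminal oligopyrimidine (5′TOP) class, like the mRNAs of ribosomal proteins, whose transcripts start with a C followed by pyrimidines and respond to growth signals. The spliced Gas5 RNA accumulates in cells whose growth is arrested, which gave the gene its name. Mir17hg is the host transcript of the miR-17-92 cluster of microRNAs, which is a target of Myc and is best known for promoting proliferation.

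The mature sequences of the miR-17-92 cluster are shown because they are the products of Mir17hg, and the members form families by their seeds (bases 2 to 8, in capitals). They come from the RefSeq table for GRCm38.p6, and all 6 hairpins were found in the GENCODE M39 annotation of GRCm39, inside Mir17hg on the plus strand of chromosome 14, between 115281103 and 115281938. miR-17-5p and miR-20a-5p share a seed, and so do miR-19a-3p and miR-19b-3p, whereas miR-18a-5p and miR-92a-3p each have their own.
mmu-miR-17-5p: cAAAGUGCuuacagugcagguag
mmu-miR-20a-5p: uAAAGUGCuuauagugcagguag
mmu-miR-18a-5p: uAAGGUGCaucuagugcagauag
mmu-miR-19a-3p: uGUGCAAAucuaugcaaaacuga
mmu-miR-19b-3p: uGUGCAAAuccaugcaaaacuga
mmu-miR-92a-3p: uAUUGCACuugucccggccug

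The labels give the captured molecule as polyA RNA, and Malat1 carries an A-rich stretch inside its sequence, in the 3′ region where the RNA folds into a triple helix before the small mascRNA is cut off. The stretch held a run of 12 A (in capitals), beginning at base 7576 of the gene, and was the only run of 10 or more A in the 7886 bases of Malat1. It lies at chr19:5845956-5846087 of GRCm39 on the minus strand, with 60 bases shown on each side of the run.
Malat1 A run: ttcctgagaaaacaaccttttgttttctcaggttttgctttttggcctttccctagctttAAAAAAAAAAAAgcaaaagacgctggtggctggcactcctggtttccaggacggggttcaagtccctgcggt
Neat1, Gas5, Snhg1, Snhg3 and Mir17hg held no such run on their own strand (0 runs), and Pvt1 held 39 over its 361.3 kb span, of which 2 were exonic. The deposited counts give no position within a gene, so where in these transcripts the reads started was not tested.

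The Gas5 start is shown because the levels of Gas5 are set below beside those of ribosomal protein genes. The RefSeq window of 250 bases before to 50 bases after the start was found 1 time in GRCm39, at chr1:160862486-160862785 on the plus strand, and the run of 6 pyrimidines that starts with C is in capitals.
Gas5 start: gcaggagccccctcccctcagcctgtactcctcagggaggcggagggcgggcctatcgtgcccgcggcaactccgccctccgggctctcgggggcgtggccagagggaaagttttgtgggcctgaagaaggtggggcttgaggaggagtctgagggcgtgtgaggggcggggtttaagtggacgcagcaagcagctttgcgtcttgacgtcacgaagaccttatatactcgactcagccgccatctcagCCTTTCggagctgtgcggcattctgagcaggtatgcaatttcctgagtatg
A C followed by at least 4 pyrimidines (C or T), starting within 10 bases of the start on the gene's strand, was present in 30.7% of 32851 RefSeq windows and in 56.2% of the 73 windows of ribosomal protein genes. The Snhg3 window held a run of 5, and the Snhg1 window and a further Gas5 window held none (0), which says only that these letters are not there.

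Cells were barcodes with at least 1000 UMIs and at most 20% UMIs of mitochondrial genes, the filter of the study. It left 2323 N2a cells with a median of 6185 UMIs, 2037 NIH/3T3 cells with 4863 and 2137 mESCs with 4803. The median mitochondrial share was 2.11% for N2a, 2.47% in NIH/3T3 cells and 2.03% in mESCs, and the ribosomal protein share was 7.14%, 9.20% and 8.08%. The line matrices shared 0 barcodes with UMIs, which follows from the split by BC1, a part of the barcode. Of 10 marker genes per line, 8 of N2a, 9 of NIH/3T3 and 10 of mESCs were highest in the labelled line, and 1 N2a marker was at 0 in N2a. In sum, the N2a markers had 1605 CPM (UMIs of a gene per 1000000 UMIs of the line's cells) in N2a, 13.2 in NIH/3T3 cells and 51.8 in mESCs. The mESC markers had 6293 CPM in mESCs and 23.2 and 19.1 in N2a and NIH/3T3. The NIH/3T3 markers had 5750.1 CPM in NIH/3T3, 1313 in N2a and 750.4 in mESCs, so each list was highest in sum in the line of its label.

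The 7 genes together took 0.331% of the UMIs in N2a, 0.964% in NIH/3T3 cells and 0.529% in mESCs, and most of this was Malat1. NIH/3T3 had the highest level of Malat1, Neat1, Pvt1 and Gas5. mESCs had the highest level of Snhg1 and Mir17hg and the lowest of Neat1, Pvt1 and Gas5. Levels are also given for the 32 BC1 sequences of each line, which are wells that share the culture and the library and describe spread within them only. Because the assay counts tags without a length correction, values are compared between lines for the same gene and not between genes.

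**Figure D1:**
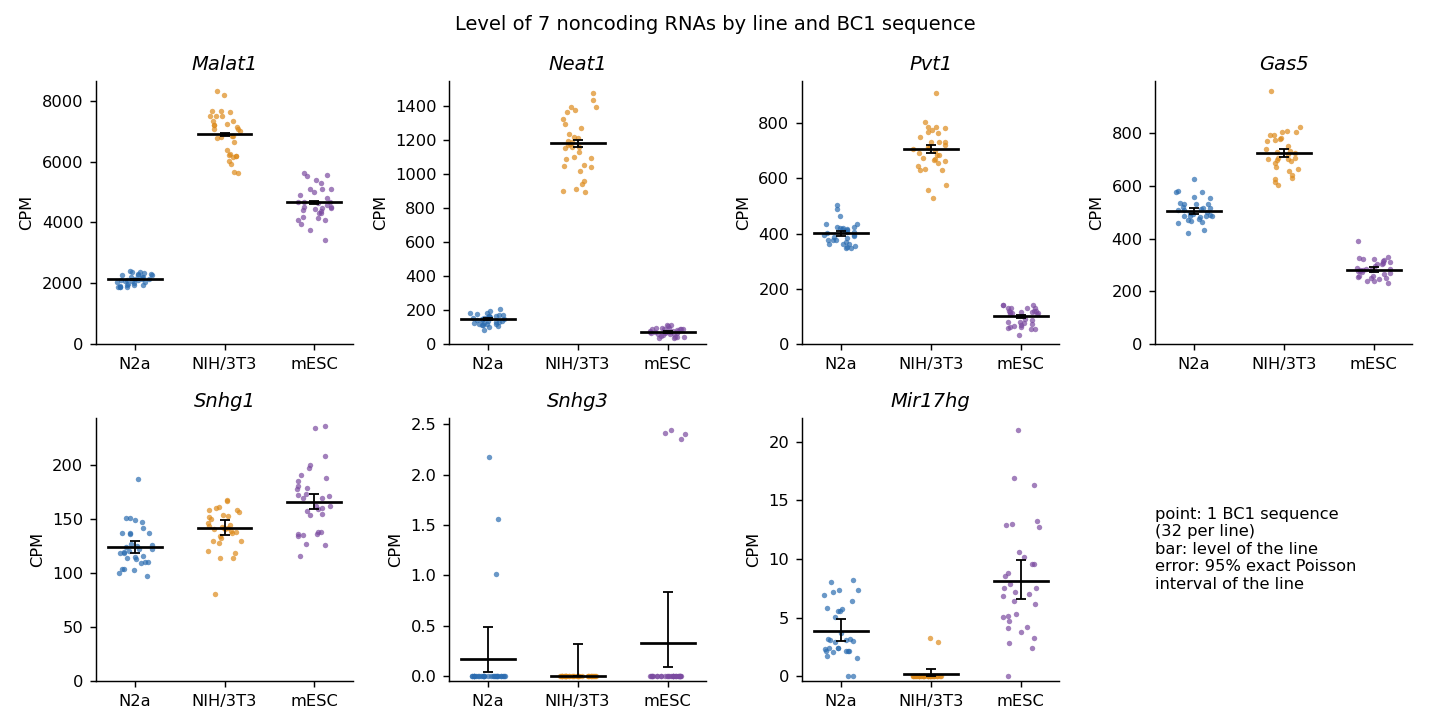
Level of each gene in CPM (linear y axis) in the 3 lines. Points are the 32 BC1 sequences of a line, bars the level over all its cells, and error bars the 95% exact Poisson interval of that level. The points of the 3 lines are separate for Malat1, overlap for Snhg1, and lie mostly at 0 for Snhg3 and for Mir17hg in NIH/3T3.

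Malat1 (ENSMUSG00000092341, chromosome 19, 5845717 to 5853602, minus strand) had 2127 CPM in N2a (95% interval 2106 to 2148), 6891 in NIH/3T3 cells (6843 to 6938) and 4656 in mESCs (4618 to 4695). Over the BC1 sequences it ranged from 1867 to 2398 in N2a (median 2125), from 5639 to 8323 in NIH/3T3 cells (median 7024) and from 3438 to 5611 in mESCs (median 4541). All BC1 sequences of a line thus lay apart from those of the other lines. The level in NIH/3T3 was 1.48 times that in mESCs (1.46 to 1.50), and the level in mESCs was 2.19 times that in N2a (2.16 to 2.22).

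Neat1 (ENSMUSG00000092274, chromosome 19, 5874736 to 5897132, minus strand) lies upstream of Malat1, with 21.1 kb between its 3′ end and the 5′ end of Malat1, and its order of lines was different. It had 1180.3 CPM in NIH/3T3 (1161 to 1200.2), 148 in N2a (142 to 153) and 73.4 in mESCs (68.7 to 78.3). Over the BC1 sequences the range was 895 to 1475 in NIH/3T3 (median 1166), 86.4 to 208 in N2a (median 146) and 34.3 to 113 in mESCs (median 73.7). NIH/3T3 stood apart from both other lines, with 7.99 times the level of N2a (7.67 to 8.34). N2a had 2.01 times the level of mESCs (1.87 to 2.17), but 3 of its 32 BC1 sequences were below the highest BC1 sequence of mESCs, so these neighbours overlapped. The paraspeckle RNA and the speckle RNA therefore differed in rank in N2a and mESCs: mESCs had more Malat1 and less Neat1 than N2a.

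Pvt1 (ENSMUSG00000097039, chromosome 15, 61888639 to 62249945, plus strand) had 706 CPM in NIH/3T3 (691 to 721), 402 in N2a (393 to 411) and 101 in mESCs (95.2 to 106). The BC1 sequences ranged from 528 to 909 in NIH/3T3 (median 703), from 348 to 505 in N2a (median 399) and from 34.3 to 143 in mESCs (median 109). No BC1 sequence of a line reached the range of another. The ratio of NIH/3T3 to N2a was 1.76 (1.70 to 1.81), and that of N2a to mESCs was 3.99 (3.76 to 4.24). Myc, whose gene ends 26.4 kb before Pvt1 begins, had the same order of lines. Its level was 74.7 CPM in NIH/3T3 (69.8 to 79.8), 60.5 in N2a (56.9 to 64.2) and 4.14 in mESCs (3.08 to 5.44, from 51 UMIs). Mycn, the Myc paralog that is amplified in many neuroblastomas, had the opposite placing, with 57.9 CPM in mESCs, 6.01 in N2a and 0.0855 in NIH/3T3.

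Among the snoRNA hosts, Gas5 (ENSMUSG00000053332, chromosome 1, 160861793 to 160866118, plus strand) had 724 CPM in NIH/3T3 (709 to 740.0), 505 in N2a (494 to 515) and 283 in mESCs (274 to 292). Its BC1 sequences ranged from 604 to 962 in NIH/3T3 (median 725), from 420 to 628 in N2a (median 505) and from 231 to 393 in mESCs (median 281). NIH/3T3 and N2a differed by 1.44 times (1.39 to 1.48), with 3 BC1 sequences of NIH/3T3 inside the N2a range, whereas mESCs lay below both without overlap. Gas5 holds 10 annotated snoRNA entries and overlaps Zbtb37 on the other strand. The strand setting of the counting is not given in the sources used here, and without strand such reads cannot be told apart.

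Snhg1 (ENSMUSG00000108414, chromosome 19, 8700319 to 8703812, plus strand) holds 8 annotated snoRNAs and was the member with the smallest differences among the 5 abundant genes. It had 124 CPM in N2a (119 to 129), 142 in NIH/3T3 cells (135 to 149) and 166 in mESCs (159 to 173). The BC1 sequences ranged from 97.2 to 187 in N2a (median 121), from 80.2 to 168 in NIH/3T3 cells (median 141) and from 116 to 236 in mESCs (median 166). The BC1 sequences of the lines overlapped: 16 of 32 mESC sequences were below the highest of NIH/3T3, and all 32 of NIH/3T3 were below the highest of N2a. The ratios were 1.17 for mESCs to NIH/3T3 (1.10 to 1.25), 1.14 for NIH/3T3 to N2a (1.07 to 1.22) and 1.34 for mESCs to N2a (1.26 to 1.42). A single BC1 sequence held only 16 to 113 Snhg1 UMIs, so the overlap does not measure the error of the summed levels. Slc3a2 overlaps Snhg1 on the other strand.

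Snhg3 (ENSMUSG00000085241, chromosome 4, 132075325 to 132080997, minus strand), the host of Snora73a and Snora73b, was close to absent. It had 3 UMIs in N2a, 0 in NIH/3T3 cells and 4 in mESCs, which is 0.167, 0 and 0.325 CPM. A count of 0 allows up to 3 UMIs, or 0.256 CPM in NIH/3T3, so no order of the lines can be read. In GENCODE M39 all of Snhg3 lies within Rcc1 on the same strand, and Rcc1, a regulator of the GTPase Ran, had 64.0 CPM in N2a, 97.8 in NIH/3T3 cells and 109 in mESCs. How reads from shared bases were assigned is not given in the sources used here, so the Snhg3 values are given as counts only.

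Mir17hg (ENSMUSG00000089726, chromosome 14, 115278211 to 115284162, plus strand), the source of the microRNAs shown above, had 100 UMIs in mESCs, 69 in N2a and 2 in NIH/3T3. These were 8.12 CPM (6.60 to 9.87), 3.84 CPM (2.99 to 4.86) and 0.171 CPM (0.0207 to 0.618). The ratio of mESCs to N2a was 2.11 (1.54 to 2.91), that of N2a to NIH/3T3 22.5 (5.99 to 189) and that of mESCs to NIH/3T3 47.5 (12.8 to 397). The wide intervals reflect the 2 UMIs in NIH/3T3. The medians over BC1 sequences were 7.37, 3.09 and 0 CPM. Of the 32 mESC sequences, 19 were below the highest N2a sequence, but a single sequence held at most 9 UMIs of the gene. The mature microRNAs are not polyadenylated and were not measured.

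Snhg3 and Mir17hg were below 20 CPM in every line and were left out of counts of genes, which used this minimum. Of the other 5 genes, 1 (Neat1) was at least 2-fold higher in its highest line than in the next line, against 30.6% of 9522 genes. Between N2a and NIH/3T3, Malat1 and Neat1 differed at least 2-fold (2 of 5 genes, against 34.5% of all genes). Between N2a and mESCs, Malat1, Neat1 and Pvt1 did (3 of 5, against 39.6%), and between NIH/3T3 and mESCs, Neat1, Pvt1 and Gas5 did (3 of 5, against 40.1%). Neat1 in N2a over mESCs was at the limit and fell short of 2-fold over all barcodes (144 against 75.3 CPM), as a mean of per-cell CPM (137 against 70.7) and with median-of-ratios size factors (145 against 72.6), which leaves 2 of 5 genes. With 5 genes, these shares are not set apart from the background.

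In single cells, Malat1 was seen in 95.8% of N2a cells, 99.1% of NIH/3T3 cells and 99.2% of mESCs. Thinned to 1000 UMIs per cell, which no cell was too shallow for, the shares were 78.9% (77.2% to 80.5%), 97.5% (96.7% to 98.1%) and 95.4% (94.4% to 96.2%). Neat1 was in 45.8%, 92.4% and 26.2% of cells, and in 12.3%, 62.7% and 6.36% after thinning. For Pvt1 the shares were 77.9%, 86.5% and 26.8%, or 30.6%, 48.5% and 8.28% thinned, and for Gas5 86.5%, 89.0% and 69.5%, or 39.5%, 49.6% and 23.2%. Snhg1 was in 52.4%, 48.2% and 51.4% of cells, but its thinned shares of 11.9%, 13.4% and 15.3% followed the CPM. Mir17hg was in 2.76% of N2a cells, 0.0982% of NIH/3T3 cells (2 of 2037) and 4.26% of mESCs. None of the lines is known to lack the 5 abundant RNAs, so no share can serve as a background, and Mir17hg in NIH/3T3 cannot be told apart from free RNA.

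The spread over cells was compared with counting noise through the squared deviations of the counts from a share proportional to depth, divided by their expectation, which is 1 for Poisson counts and grows with the level of a gene. Malat1 had 7.15 in N2a, 18.3 in NIH/3T3 cells and 6.88 in mESCs, against medians over all genes of 1.17, 1.14 and 1.15. In NIH/3T3 no gene of 7483 had a higher value (0 genes), in N2a 15 of 7476 did, and in mESCs 23 of 7265. Neat1 had 2.82, 3.98 and 2.13 and Pvt1 2.35, 2.75 and 3.17, the last with 63 genes above it although Pvt1 was lowest in mESCs. Gas5 had 1.53, 1.55 and 1.28, and Snhg1 had 1.12, 1.17 and 1.33. Of the 5 abundant genes, the closest to counting noise was thus Snhg1 in N2a and NIH/3T3 and Gas5 in mESCs. Because the measure grows with level, this order partly follows abundance. Per cell, the median Malat1 level in N2a was 1868 CPM, with a 5th to 95th percentile range of 264 to 4553. The corresponding values were 6152 (1871 to 14610.3) in NIH/3T3 cells and 4271 (1373 to 9173) in mESCs. A level of 20000 CPM or more was found in 34 NIH/3T3 cells (1.67%), 5 mESCs and 0 N2a cells.

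**Figure D2:**
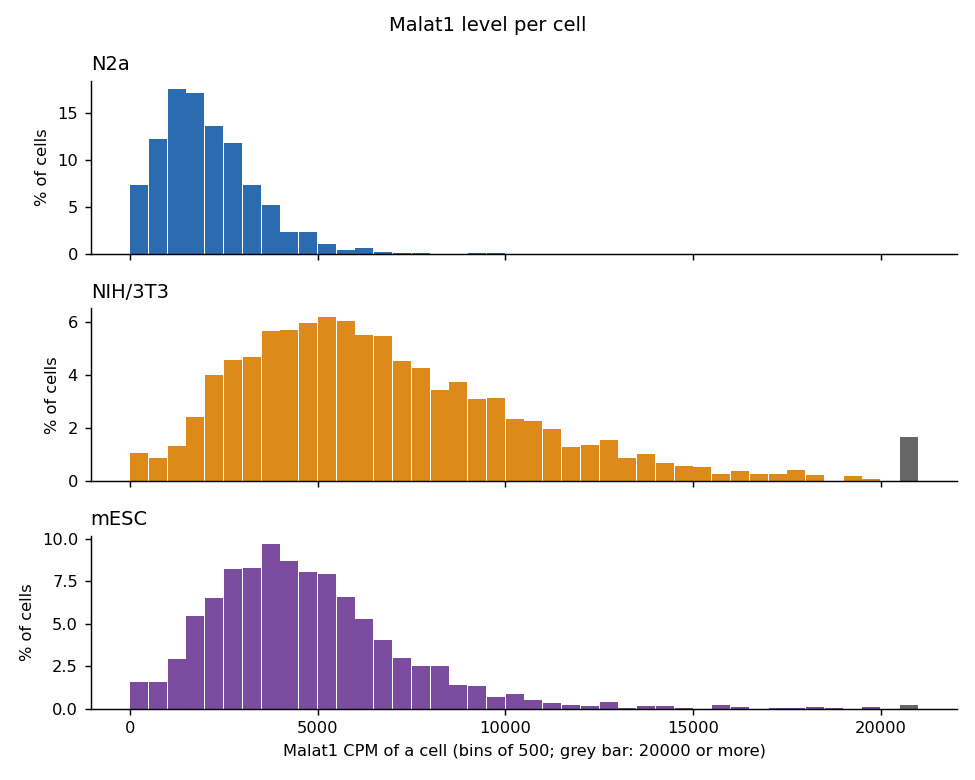
Distribution of the Malat1 level per cell, in CPM of the cell (x axis, bins of 500), as a percentage of the cells of each line (y axis, own scale per panel). The grey bar collects cells at 20000 or more. The median is 1868 in N2a, 6152 in NIH/3T3 cells and 4271 in mESCs, and the long upper tail is that of NIH/3T3.

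Cells without a single Malat1 UMI were more numerous than depth alone gives. In N2a there were 98 such cells (4.22%), where Poisson counts at the same depths would give 14.6. In NIH/3T3 there were 19 against 0.0341 and in mESCs 18 against 0.638. The N2a cells at 0 occurred in all 32 BC1 sequences and were shallow, with a median of 1593 UMIs against 6443 in the other N2a cells, and 2 of the 1390 N2a cells with 5000 or more UMIs were at 0. Their median mitochondrial share was 0.392% against 2.14%. The gap remained at similar depth. Among N2a cells below 2000 UMIs, the 63 at 0 (median 1340 UMIs) had a median mitochondrial share of 0.179%, and 68.3% of them were below 1%, while the 190 with Malat1 (median 1489 UMIs) had 2.11%, with 13.7% below 1%. In these cells Pvt1 was at 299.9 CPM (26 UMIs) against 324 (93 UMIs), and Gas5 at 323 CPM (28 UMIs) against 589 (169 UMIs). In the same comparison in NIH/3T3, Pvt1 was at 137 CPM (3 UMIs) against 765 (290 UMIs) and Gas5 at 1004 CPM (22 UMIs) against 726 (275 UMIs), so Gas5 was not on the same side in both lines. In NIH/3T3 below 2000 UMIs, the 17 cells at 0 had a median ribosomal protein share of 20.6% against 9.44% in the 245 others, and 35.3% against 2.86% were below 1% mitochondrial UMIs. In mESCs the shares below 1% were 35.7% of 14 cells and 6.87% of 262. The median mitochondrial shares in these shallow cells were closer than in N2a, at 2.04% against 2.63% in NIH/3T3 and 1.73% against 2.42% in mESCs. Over all depths, the mESCs at 0 had a median of 2.18% against 2.03%, so the low share seen in N2a was not found there. The ribosomal protein share of the shallow mESCs was 7.78% against 8.13%. What these barcodes held was not tested.

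The 5 abundant genes differed little with depth. Cells of each line were divided into quartiles of total UMIs, whose medians ran from 2202 to 14363 in N2a, from 1972 to 10209.5 in NIH/3T3 cells and from 1976 to 10300 in mESCs, and their UMIs were summed. None of the 15 pairs of gene and line (0) was 1.5-fold higher or lower in the top than in the bottom quartile, and the ratios ranged from 0.916 to 1.31. Of all genes, 1.44% were higher and 0.388% lower in N2a, 2.77% and 0.922% in NIH/3T3 cells, and 2.4% and 1.79% in mESCs. From the shallowest to the deepest quartile, Malat1 was at 2051, 2144, 2068 and 2162 CPM in N2a, a ratio of 1.05 (1.01 to 1.10). The quartiles were 7393, 7136, 6712 and 6814 CPM in NIH/3T3, a ratio of 0.922 (0.899 to 0.945), and 4944, 4708, 4587 and 4626 in mESCs, a ratio of 0.936 (0.908 to 0.964). The shallowest quartile was thus the highest in NIH/3T3 and mESCs and not in N2a. Among cells at or below the line median of mitochondrial share, the Malat1 ratio was 1.18 in N2a, 1.02 in NIH/3T3 cells and 0.997 in mESCs, so the direction was not kept in NIH/3T3. The largest ratio was that of Neat1 in N2a, with 119, 133, 149 and 155 CPM, or 1.31 (1.10 to 1.55). Neat1 in NIH/3T3 went from 1264 to 1158 CPM, or 0.916 (0.863 to 0.974).

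**Figure D3:**
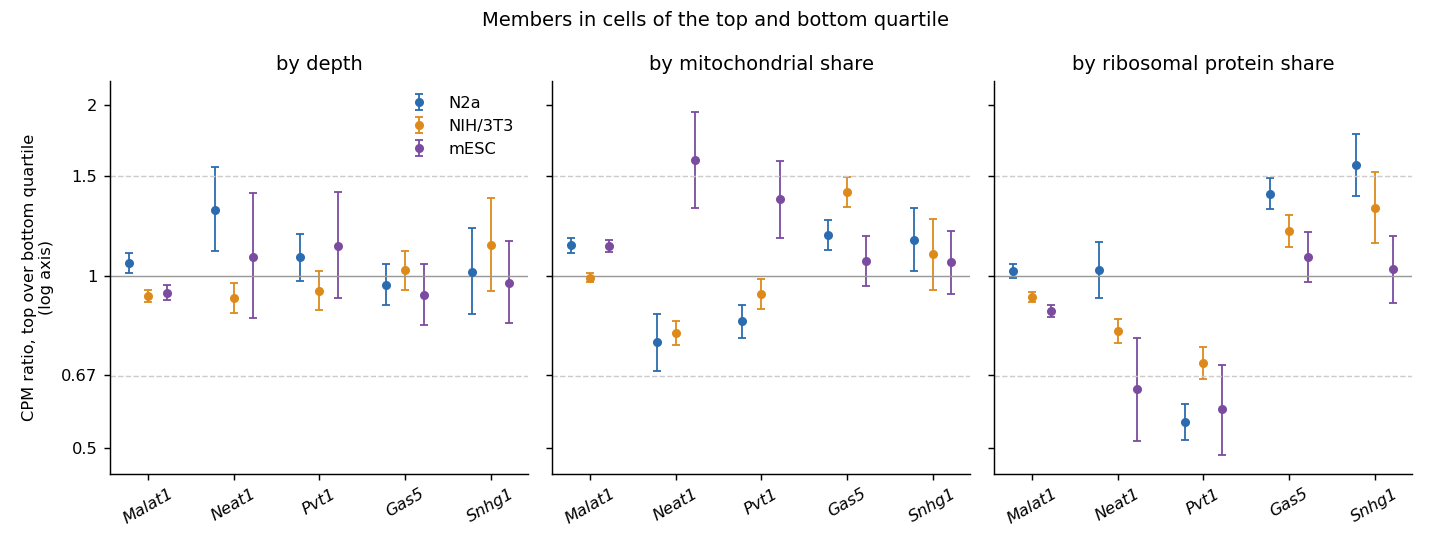
Ratio of the CPM in the top to that in the bottom quartile of cells (log y axis) for the 5 abundant genes in each line, with cells ranked by depth, mitochondrial share or ribosomal protein share. Error bars are 95% exact intervals for counting error, and dashed lines mark 1.5-fold. By depth all ratios lie between 0.916 and 1.31, while by ribosomal protein share Pvt1 is lower and Gas5 is higher in the top quartile of each line, with an interval that includes 1 for Gas5 in mESCs.

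By mitochondrial share, the ratios of the members differed from line to line. The quartile medians ran from 1.19% to 3.56% in N2a, from 1.68% to 3.70% in NIH/3T3 cells and from 1.27% to 3.29% in mESCs. The ribosomal protein share moved with it in N2a, from 5.84% to 8.14%, and in mESCs, from 7.34% to 8.88%. It was 9.25% and 8.91% in NIH/3T3. Of 15 pairs, 1 was 1.5-fold higher in the top quartile and 0 were lower. Among all genes, 1.05% were higher and 2.8% lower in N2a, 5.88% and 7.04% in NIH/3T3 cells, and 1.93% and 2.16% in mESCs. The pair was Neat1 in mESCs, with 61.3, 73.7, 66.6 and 98.0 CPM from the bottom to the top quartile, a ratio of 1.60 (1.32 to 1.94) that rested on the last step. Neat1 ran the other way in N2a, with 165, 168, 128 and 126 CPM (ratio 0.765, 0.681 to 0.859), and in NIH/3T3, with 1289, 1254, 1139 and 1026 CPM (0.796, 0.758 to 0.835).

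Pvt1 showed the same split by line. Its quartiles were 460.4, 405, 359 and 384 CPM in N2a (ratio 0.833, 0.779 to 0.891), 774, 685, 646 and 719.6 in NIH/3T3 cells (0.930, 0.876 to 0.988), and 102, 82.2, 91.4 and 139 in mESCs (1.36, 1.17 to 1.59). Gas5 was higher in cells with a higher mitochondrial share of NIH/3T3, with 618, 661, 762 and 869 CPM, and this step at every quartile gave a ratio of 1.41 (1.32 to 1.50). In N2a it went from 459 to 543 CPM (1.18, 1.11 to 1.26), and in mESCs from 272 to 289 CPM (1.06, 0.961 to 1.18). Malat1 had a ratio of 1.13 in N2a (1.10 to 1.17), 0.994 in NIH/3T3 cells (0.975 to 1.01) and 1.13 in mESCs (1.10 to 1.16). Snhg1 had 1.16 (1.02 to 1.31), 1.09 (0.947 to 1.26) and 1.06 (0.930 to 1.20). Across single cells thinned to 1000 UMIs, Spearman's rho of the counts with the mitochondrial share was highest for Malat1 in N2a, at 0.107 over 2323 cells, and lowest for Neat1 in NIH/3T3, at −0.0725 over 2037 cells. For Neat1 in mESCs, the pair past 1.5-fold, rho was 0.00987, and for Pvt1 in NIH/3T3, with a ratio below 1, it was 0.00970. These values describe cells of 1 library.

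The ratios of the members were most spread by ribosomal protein share, from 0.554 to 1.57. Its quartile medians ran from 4.80% to 9.85% in N2a, from 6.41% to 12.1% in NIH/3T3 cells and from 6.05% to 10.4% in mESCs. Of 15 pairs, 1 was 1.5-fold higher in the top quartile and 3 were lower. The background was large as well: 11.3% of genes were higher and 19.5% lower in N2a, 4.54% and 16% in NIH/3T3 cells, and 3.4% and 9.05% in mESCs. With 15 pairs, the counts of members are not set apart from this background. Pvt1, the Myc neighbour, was lower in cells rich in ribosomal protein RNA in each line. It had 522, 414, 351 and 289 CPM from the bottom to the top quartile in N2a, a ratio of 0.554 (0.515 to 0.595). In NIH/3T3 the quartiles were 845, 688, 685 and 595 CPM (0.704, 0.660 to 0.750), and in mESCs 127, 98.9, 96.2 and 73.9 CPM (0.584, 0.485 to 0.699).

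The snoRNA hosts were placed on the other side. Gas5 had 423, 484, 547 and 590.0 CPM in N2a, a ratio of 1.40 (1.31 to 1.48), and a ratio of 1.20 in NIH/3T3 (1.13 to 1.28), where the second quartile of 772 CPM was the highest. In mESCs its ratio was 1.08 (0.975 to 1.19), which includes 1. Snhg1 had 95.0, 122, 136 and 149 CPM in N2a, a ratio of 1.57 (1.38 to 1.78), the pair above 1.5-fold. Its ratio was 1.32 in NIH/3T3 cells (1.14 to 1.52) and 1.03 in mESCs (0.897 to 1.18). For both hosts the value in mESCs was the nearest to 1, and the difference between lines was not tested. Neat1 was lower in the top quartile in NIH/3T3, from 1391 to 1115 CPM (0.802, 0.764 to 0.842), and in mESCs, from 91.4 to 57.9 CPM (0.634, 0.513 to 0.780). In N2a its ratio was 1.03 (0.914 to 1.15). Malat1 had ratios of 1.02, 0.919 and 0.869 in N2a, NIH/3T3 and mESCs. With both mitochondrial and ribosomal protein UMIs taken out of the denominator, all 15 ratios kept their direction, but Neat1 in mESCs moved to 0.672, which left 2 pairs in place of 3 at least 1.5-fold lower.

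Barcodes above the mitochondrial limit were few: 7 in N2a, 15 in NIH/3T3 cells and 18 in mESCs. Their median mitochondrial share was 31.7%, 28.0% and 23.2%. In NIH/3T3 they were rich in Malat1, with 636 UMIs or 17265 CPM, 251% of the level in cells (231% to 271%). Of the 15 barcodes, 14 were above the median of NIH/3T3 cells, and their own median was 13997 CPM, so the value did not rest on a single barcode. Neat1 in these barcodes was at 163% of its level in cells (127% to 206%, 71 UMIs) and Snhg1 at 249% (132% to 427%, 13 UMIs). Pvt1 was at 119% (80.9% to 169%) and Gas5 at 97.4% (63.6% to 143%). In the other lines Malat1 was lower in such barcodes. It had 8 UMIs in 7 N2a barcodes (34.3% of the level in cells, 14.8% to 67.6%) and 62 UMIs in 18 mESC barcodes (53.3%, 40.9% to 68.3%), with 1 and 3 barcodes above the median of cells.

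RNA below the cell filter held the 5 abundant genes at 60.2% to 141% of their levels in cells. In N2a, Malat1 in barcodes with 1 to 9, 10 to 99 and from 100 to under 1000 UMIs was at 92.4%, 86.1% and 78.6% of the level in cells. The corresponding values were 87.8%, 88.4% and 99.1% in NIH/3T3 cells and 88.3%, 102% and 109% in mESCs. Over the 5 abundant genes the range was 60.2% (Pvt1, 48.9% to 73.3%) to 92.4% in N2a, 64.4% (Neat1, 57.2% to 72.2%) to 103% (Snhg1) in NIH/3T3 and 82.2% (Snhg1) to 141% (Neat1, 104% to 187%) in mESCs. All 3 values of Pvt1 in N2a were below 82%, at 60.2%, 81.6% and 80.4%. Malat1, a nuclear RNA, was thus at 78.6% to 109% of its level in cells outside the cell barcodes, and free RNA and shallow cells cannot be told apart there.

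**Figure D4:**
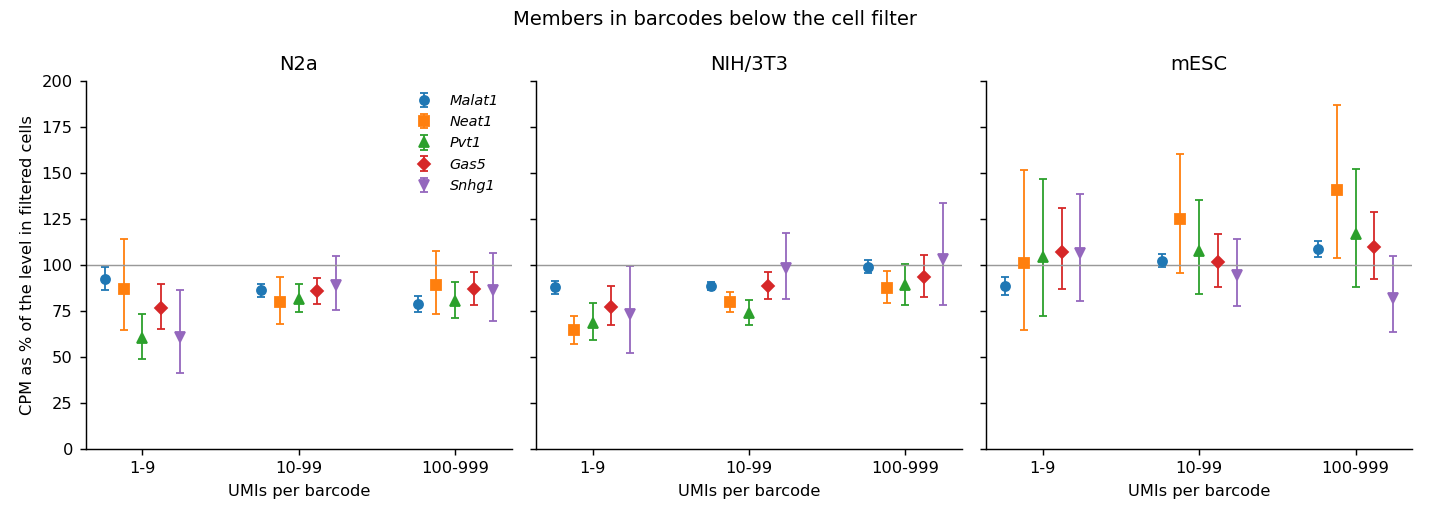
Level of the 5 abundant genes in barcodes with 1 to 9, 10 to 99 and from 100 to under 1000 UMIs (x axis), as a percentage of the level in filtered cells of the same line (y axis, 100 marks equality). Error bars are 95% exact intervals for counting error. Values lie from 60.2% to 92.4% in N2a, from 64.4% to 103% in NIH/3T3 cells and from 82.2% to 141% in mESCs.

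Neat1, the neighbour of Malat1 on chromosome 19, was higher in the cells with the most Malat1 in each line, weakly in N2a. When cells were divided into quartiles by Malat1, with Malat1 left out of the denominator, Neat1 in NIH/3T3 was at 802, 1103, 1220.4 and 1649 CPM, a ratio of 2.06 (1.95 to 2.16). In mESCs the quartiles were 54.4, 60.7, 79.3 and 100.3 CPM, or 1.84 (1.50 to 2.27), and in N2a 122, 154, 153 and 157 CPM, or 1.29 (1.15 to 1.46). Over the same quartiles Pvt1 in NIH/3T3 went from 826 to 631 CPM (0.765, 0.718 to 0.815), and was higher in mESCs (1.43, 1.21 to 1.69). Gas5 in NIH/3T3 had a ratio of 0.848 (0.797 to 0.903), and in N2a of 1.18 (1.11 to 1.26). Pearson's r of Malat1 with Neat1 over log values was 0.371 in 2037 NIH/3T3 cells, 0.107 in mESCs and 0.0946 in N2a. After thinning to equal depth, the rank correlation was 0.197 in NIH/3T3, and only 0.0478 in mESCs and 0.0237 in N2a. In N2a, r of Malat1 was higher with Gas5 (0.172) and Pvt1 (0.115) than with Neat1. For the other pairs of members r was at most 0.172 in size (Malat1 with Gas5 in N2a). These correlations share the library and the depth of the cells. Counting noise lowers r for a gene with few UMIs, and Neat1 was at 1180 CPM in NIH/3T3, 148 in N2a and 73.4 in mESCs. Its r with Malat1 is therefore not compared between lines.

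For members with at least 100 CPM in every line, the genes most like them over cells were ranked by the mean Pearson's r of the 3 lines among 1531 genes at that level. For Malat1 they were Prc1 (mean r 0.222) and Top2a (0.221), which act in mitosis, and Immp2l (0.220), a subunit of a mitochondrial peptidase. For Pvt1 they were Exoc4 (0.209), an exocyst subunit, and Ext1 (0.176), a glycosyltransferase. Exoc4 and Ext1 span 724.9 and 282.2 kb and Pvt1 361.3 kb, but Immp2l, with 928.3 kb, was listed for Malat1, which spans 7.9 kb. For Gas5 they were ribosomal protein genes, namely Rpl39 (0.151) and Rpl27 (0.150). For Snhg1 the first was Gas5 (0.0994), before the peroxiredoxin Prdx6 (0.0982) and Rpl23a (0.0928). These values are low and are given as a description. Neat1 was below 100 CPM in mESCs and was not ranked.

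Other genes of the same classes were taken from lists. Of 17 further snoRNA hosts, 16 were in the matrices, 15 reached 20 CPM in a line and 6 were at least 2-fold higher in the highest than in the next line, with a median ratio of 1.70. Over all genes the median was 1.45, with 30.6% called. Of all genes tested, 10.1% were called with NIH/3T3 as the highest line, 10.2% with N2a and 10.3% with mESCs. In NIH/3T3 the 4 were Snhg8 (3.39-fold, at 284 CPM), Snhg9 (2.49), Snhg20 (2.37) and Snhg18, which had 613 UMIs in NIH/3T3, 0 in N2a and 4 in mESCs. In mESCs it was Snhg11, with 458 UMIs against 2 in each other line (217-fold over NIH/3T3, interval 59.8 to 1801), and in N2a Snhg14 (4.82), a transcript of the imprinted Prader-Willi region, with 183 CPM. Zfas1 and Snhg12 had ratios of the highest to the next line of 1.08 and 1.17, near that of Snhg1 (1.17). Their order of lines was different from that of Snhg1, which was highest in mESCs. Zfas1 was at 179 CPM in N2a, 166 in NIH/3T3 cells and 87.5 in mESCs, and Snhg12 at 81.0, 94.5 and 76.8. Of 8 other 5′TOP genes, such as the elongation factor gene Eef1a1 and Tpt1, 0 passed 2-fold and the median ratio was 1.20.

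Of 22 other long noncoding RNAs, 20 were in the matrices and 15 reached 20 CPM. Of these, 10 were at least 2-fold higher in a line (30.6% over all genes), with a median ratio of 2.72. Those of N2a were Xist (366 CPM), which silences an X chromosome, Lncpint (789 CPM, 3.74-fold), Airn (499.7 CPM, 2.72-fold), which silences imprinted genes around Igf2r, and Dleu2 (273 CPM, 2.45-fold). Those of mESCs were Tsix (287 CPM), the antisense partner of Xist, Firre (99.2 CPM, 6.99-fold), and Meg3 (194 CPM, 10.7-fold), Rian (262 CPM, 6.67-fold) and Mirg (20.3 CPM, 7.75-fold) of the imprinted Dlk1-Dio3 region. Without a strand setting, reads of Xist and Tsix over shared bases cannot be told apart. In NIH/3T3 it was Dancr (37.9 CPM, 2.33-fold). NIH/3T3 was the highest line for 1 of these 10 genes, out of 15 tested. Over all genes tested, 10.1% were called with NIH/3T3 as the highest line, so this count is not set apart from the background. Meg3, Rian and Mirg lie in 1 region and are counted separately. Of 10 genes listed as microRNA hosts, 9 were in the matrices, 3 reached 20 CPM and these were at least 2-fold higher in a line. They were Mirg in mESCs, counted above as well, Mir100hg in NIH/3T3 (358 CPM, 4.32-fold), and Mirt1 in NIH/3T3 (26.4 CPM, 46.5-fold), a long noncoding RNA that is not known as a microRNA host despite its symbol. Of 12 genes of Myc and growth, 11 reached 20 CPM, and Mycn in mESCs (9.62-fold) was the 1 past 2-fold.

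**Figure D5:**
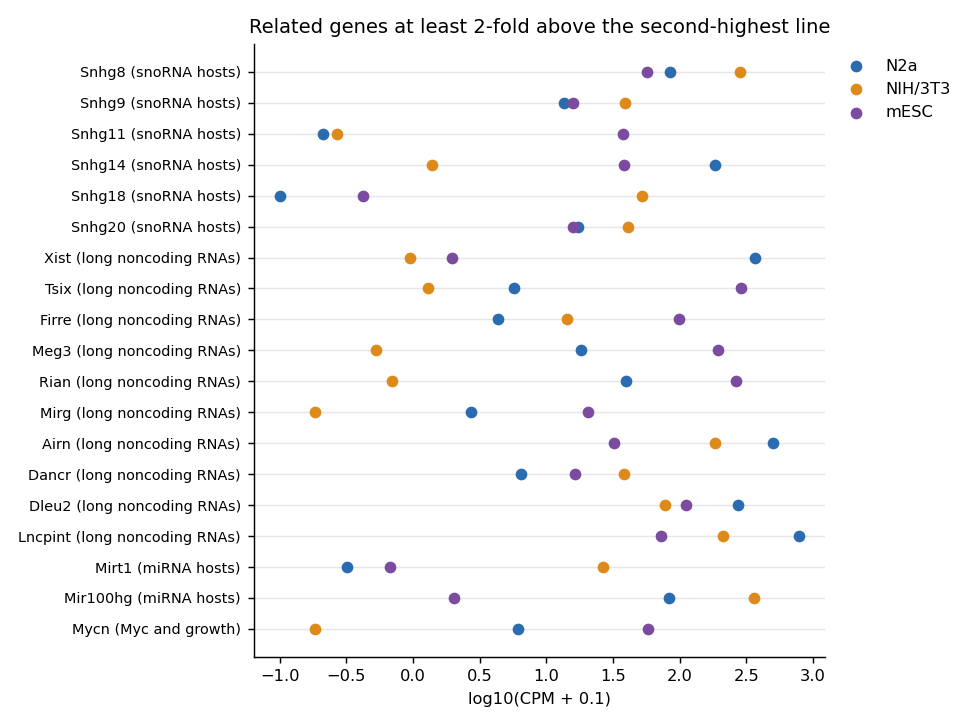
Level of the listed genes that were at least 2-fold higher in the highest line than in the next line, with 1 row per gene and its list in brackets. The x axis is log10 of CPM + 0.1, so a gene at 0 lies at −1, and colours mark the 3 lines. Snhg18 in NIH/3T3, Snhg11 in mESCs and Xist in N2a are the genes with the widest gaps.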

How the data were processed

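All 3 lines were sequenced in 1 CapSeq library. The authors trimmed the reads with Cutadapt, assigned them to lines by BC1, and used STARsolo for alignment and counting (GRCm39, GENCODE M30). They deposited raw counts of UMIs for each gene and barcode, without a cell filter. The feature mode (exons only or whole genes) and the strand setting are not given in the sources used here, and both can change the counts of long genes and of genes that overlap.

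From the deposited counts, UMIs of cells (at least 1000 UMIs, at most 20% mitochondrial) were summed per line or quartile and given as CPM. The matrices held 20662884 (N2a), 13505027 (NIH/3T3) and 13875356 (mESC) UMIs, of which 17955221, 11697865 and 12322098 were in cells. Exact Poisson intervals were used for levels, exact binomial intervals for shares, and exact conditional intervals for ratios, all at 95%. A count of 0 was taken to allow 3. UMIs from 1 library are not replicates, so no p-value is given. No doublet caller was run. A 2-fold difference between lines was counted for genes with at least 20 CPM in 1 of the compared lines. A 1.5-fold difference between quartiles was counted for genes with at least 20 CPM over all cells of the line. Cells were thinned to 1000 UMIs with a fixed seed. Correlations used log values of counts per 10000 plus 1. The genes named are the 7 members, the 3 genes most like each member with at least 100 CPM in every line, and listed genes past 2-fold. Some genes that this rule names are not reported here. Zfas1, Snhg12, Eef1a1 and Tpt1 are list members named after their values were seen, and the comparison of Malat1 at 0 with depth and mitochondrial share, the quartiles by Malat1 and the values of Myc and Rcc1 were also chosen then. Members and lists were chosen with earlier results of these data known. Gene positions came from GENCODE M39, and microRNA and start sequences from RefSeq. Alternatives changed the filter, barcodes, denominator, scaling, quartiles, minimum level and thinning. The ratios between lines and between depth quartiles were tried on simulated Poisson counts, and the other steps were not. Such counts lack the spread between cells, so the intervals were not tested under it. The tools were scipy 1.17.1, numpy 2.4.6, pandas 2.3.3 and matplotlib 3.10.9 under Python 3.11.15.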

Additional observations from a re-analysis of the deposited data

Results flagged for a closer look

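The relation of a member to depth or mitochondrial share had opposite directions in different lines, with counting intervals on opposite sides of 1, for 4 combinations. None of these differences between lines was tested, because each line is 1 library. Counting intervals also leave out the spread between cells. Relative to counting noise, that spread was 6.88 to 18.3 for Malat1, 2.13 to 3.98 for Neat1 and 2.35 to 3.17 for Pvt1 over the lines. Whether the directions exceed it was not tested. By depth, the ratio of the top to the bottom quartile for Malat1 was 1.05 in N2a, 0.922 in NIH/3T3 cells and 0.936 in mESCs. For Neat1 by depth it was 1.31 in N2a and 0.916 in NIH/3T3. By mitochondrial share, Neat1 had 1.60 in mESCs, 0.765 in N2a and 0.796 in NIH/3T3. Pvt1 by mitochondrial share had 1.36 in mESCs, 0.833 in N2a and 0.930 in NIH/3T3. The top quartile by mitochondrial share was the shallowest in every line, with a median of 5446 UMIs against 5789 in the bottom quartile of N2a, 4338 against 5196 in NIH/3T3, and 3749 against 4995 in mESCs. In cells above the line median of UMIs, 14 of 15 ratios by mitochondrial share kept their direction. In cells at or below the line median of mitochondrial share, 12 of 15 ratios by depth did. There Malat1 by depth was 1.02 in NIH/3T3 and 1.18 in N2a, so the opposite directions of these lines were lost, and 0.997 in mESCs.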

How the results depend on the processing

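The 6 ratios of the highest to the next line other than that of Snhg3, which rests on 4 against 3 UMIs, kept their direction under 8 alternatives. The log2 ratio of Snhg3 was 0.96, and 0.34 with the mean of per-cell CPM. Median-of-ratios size factors, which moved the median of all genes by at most 0.04 on the log2 scale in a line, changed the log2 ratio of Malat1 in NIH/3T3 over mESCs from 0.57 to 0.62. They changed those of NIH/3T3 over N2a from 3.00 to 3.07 for Neat1, from 0.81 to 0.88 for Pvt1 and from 0.52 to 0.59 for Gas5. The mean of per-cell CPM gave 3.13 for Neat1 and 0.87 for Pvt1. Of 168 levels under the alternatives, 142 stayed inside the counting interval. These include all levels of Snhg3 and Mir17hg, whose intervals are wide. Malat1, whose intervals are narrow, left them in every line without mitochondrial UMIs in the denominator, with size factors and with the mean of per-cell CPM. In NIH/3T3 these gave 7081, 7095 and 7031 CPM, against 6891. With cells split at the median in place of quartiles, which sets less extreme cells against each other, 0 pairs were 1.5-fold higher by mitochondrial share (1 with quartiles), and 0 were higher and 0 lower by ribosomal protein share (1 and 3). With no minimum level, 5 microRNA hosts passed 2-fold in place of 3, and 2 genes of Myc and growth in place of 1, as also at a minimum of 5 CPM. Depth ratios kept their direction in 12 of 15 pairs among cells at or below the median mitochondrial share, the exceptions being Malat1 in NIH/3T3 (1.02), Gas5 in NIH/3T3 (0.982) and Snhg1 in mESCs (1.25). No paired analysis was possible because each line is 1 library with no replicates and no test. Intervals and floors cover counting error only, and depth limits Snhg3 and Mir17hg, which had at most 100 UMIs in a line.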
